A study of Mus musculus with 20 samples.

Results

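The 259 genes described here were abundant in resting control macrophages and had lost most of their mRNA after 6 h of inflammatory stimulation. They were chosen by measured values. A gene entered the set when its mean level in the unstimulated control libraries was at least 40 CPM (counts scaled to an equal total per library), its mean level at 6 h was at most 16.7% of that, and its higher 6 h control library lay under its lower unstimulated control library. Of 22165 genes in the count table, 4005 reached 40 CPM in the unstimulated controls, and 259 met the whole rule. All 259 were annotated as protein-coding, and each passed the filter on low counts because of its high level in the unstimulated controls. Just inside the limit on the fall were Lmbrd2, Rassf2 and Jmjd1c, with 16.7%, 16.6% and 16.6% of their starting level left. Specc1, Cd300a and Plekhm1 lay just outside it, with 16.7%, 16.8% and 16.8% left. At the limit on level, Speg (40.1 CPM), Gpr89 (40.5 CPM) and Parvb (40.8 CPM) were inside, and Hdac5 (39.8 CPM), Tsc22d1 (39.6 CPM) and Mrtfb (39.4 CPM) were outside although they also fell.

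The cells were bone marrow-derived macrophages of wild-type C57BL/6 mice, grown from marrow for 7 days in RPMI medium with the growth factor m-CSF. All were given LPS together with IFNg for 0, 1, 2, 4 or 6 h. The control arm (Ctrl) had no further treatment, and the other arm (DI) had been kept in 250 µM dimethyl itaconate for 12 h before LPS. Each of the 10 groups had 2 libraries. The labels give no age or sex of the mice and do not say whether the libraries of a group came from separate mice or cultures, so p-values measure the spread between these libraries, which may be technical.

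A macrophage senses LPS, a component of bacterial outer membranes, through the receptor TLR4, and IFNg through its own receptor. While cytokine and antimicrobial genes are switched on, many genes of the resting or growing macrophage are switched off, and the mRNA of a gene that is no longer transcribed falls at the speed at which its existing copies decay. Itaconate is a metabolite that macrophages make from the citric acid cycle after such stimulation. Dimethyl itaconate is a membrane-permeable ester used in its place, a reactive compound known to evoke an oxidative stress response.

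Library totals ran from 3655977 to 8938983 counts in Ctrl and from 3982073 to 6725447 in DI. The DI libraries held fewer rarely seen genes, with 333 to 674 genes at 1 to 3 counts against 1370 to 1741 in Ctrl, and 11143 to 12356 genes at 0 against 9301 to 10859. The part of this difference in any DI result below was not tested. All 10 macrophage markers, among them Adgre1, Csf1r and Cd68, were detected, with a summed level of 4360 to 6273 CPM in Ctrl and 3079 to 5125 CPM in DI libraries. The 10 listed neutrophil genes summed to 292 to 744 CPM in Ctrl and 400.1 to 826 CPM in DI, and every mast cell, T cell and NK cell marker in the table stayed under 5 CPM. Of the other listed cell types, the 7 fibroblast or stromal genes summed to 38.7 to 69.5 CPM in Ctrl and 5.76 to 40.5 in DI, the 7 dendritic cell genes to 15.3 to 45.8 and 7.24 to 30.3, the 5 B cell genes to 1.91 to 9.58 and 1.90 to 5.44, and the 8 erythroid or megakaryocyte genes, by way of Pf4 and Ppbp, to 118 to 284 and 182 to 459.9. In Ctrl the means of all 7 neutrophil genes that reached 5 CPM were lower at 6 h than at 0 h, S100a9 going from 351 CPM at 0 h to 150.1 at 6 h and Ltf from 28.2 to 4.98. In DI S100a9 went from 333 to 227 and Ltf from 17.5 to 7.86, but S100a8 rose from 151 to 181. The dendritic cell genes moved in unlike directions. Ccr7 went from 6.78 to 31.7 in Ctrl and from 2.18 to 7.53 in DI. Siglech went from 9.04 to 6.38 in Ctrl and from 11.6 to 4.41 in DI. Clec9a went from 3.26 to 2.30 in Ctrl and from 0.848 to 3.02 in DI. The part of these in the results was not tested. In such bulk libraries a fall in an mRNA per cell and a fall in the number of cells that hold it cannot be told apart. A CPM value is a share of all reads, and the scaling factor of edgeR's TMM method moved from 1.38 and 1.40 in the Ctrl 0 h libraries to 0.765 and 0.808 at 6 h. Falls given in CPM are therefore larger than the fold changes given below, which are on the TMM scale. On TMM-scaled values 80 of the 259 genes would meet the rule.

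The 259 genes together made up 3.58% and 3.65% of all counts in the Ctrl 0 h libraries, 2.66% and 2.80% at 1 h, 1.61% and 1.55% at 2 h, 0.567% and 0.546% at 4 h, and 0.381% and 0.382% at 6 h. In DI they made up 2.97% and 3.30%, 2.87% and 2.77%, 1.79% and 1.74%, 0.946% and 0.987%, and 0.846% and 0.901% at the same times. Their median level in Ctrl, as a percentage of each gene's own 0 h mean in CPM, was 69.6% at 1 h and 41.1% at 2 h, then 14.9% at 4 h and 11.1% at 6 h, the last of which the rule fixed. Over all 4005 genes of at least 40 CPM the same medians were 82.5%, 68.5%, 57.6% and 58.9%. In DI the 259 genes stood at medians of 84.9%, 51.4%, 28.3% and 24.2% of their DI 0 h level, against 92.1%, 75.1%, 68.4% and 69.6% for the 4005 genes. On the TMM scale the medians for the 259 genes were 86.0%, 61.0%, 27.1% and 19.6% in Ctrl and 100.2%, 70.8%, 43.0% and 35.6% in DI. The share left was thus larger in DI at each time, both for the set and for the 4005 genes. The Ctrl shares of the set divide by the Ctrl 0 h level, which the rule required to be high, so at every time this direction is partly fixed by the choice of genes.

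**Figure D1:**
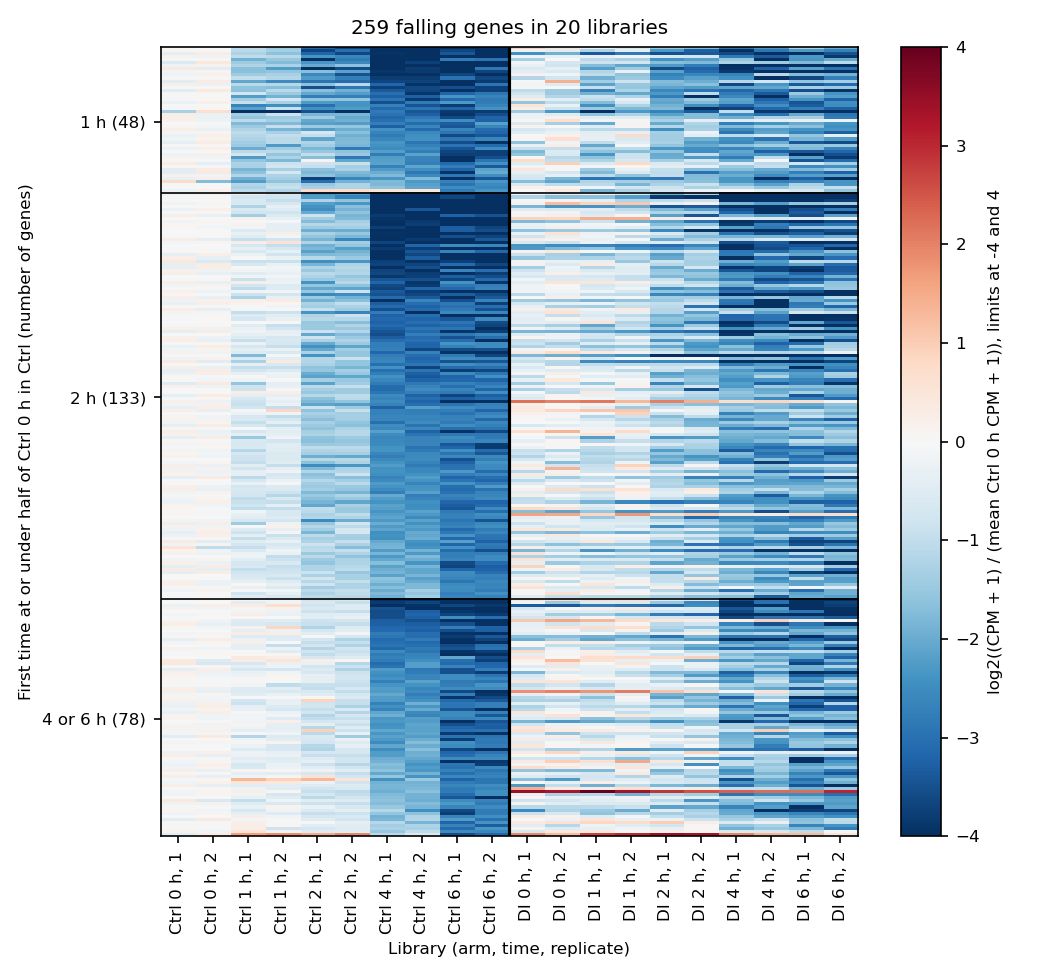
Level of each of the 259 genes (rows) in each of the 20 libraries (columns: arm, hours, replicate), as log2 of (CPM + 1) over (mean Ctrl 0 h CPM + 1). Rows are grouped by the first time at which the Ctrl mean was at or under 50% of 0 h (48 genes at 1 h, 133 at 2 h, 78 later), and the blue of the Ctrl 4 h and 6 h columns is paler in many rows of the DI columns.

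The deepest falls in Ctrl were in genes of unlike roles, and these values are the ones that chose the genes. Bhlhe41, a basic helix-loop-helix repressor related to the clock proteins, measured 33.00 and 67.4 CPM in the Ctrl 0 h libraries, 18.03 and 14.3 at 1 h, 9.13 and 7.58 at 2 h, 1.32 and 2.82 at 4 h and 0 and 0.241 at 6 h. The 6 h libraries held 1 read against 782 at 0 h, a ratio of summed counts of 0.265% with an exact 95% binomial interval of 0.00670% to 1.48%, which covers counting error only. In DI, Bhlhe41 measured 46.3 and 30.6 CPM at 0 h, 28.1 and 29.9 at 1 h, 14.7 and 14.2 at 2 h, 20.5 and 18.2 at 4 h and 14.03 and 23.1 at 6 h. All DI libraries of Bhlhe41 from 1 h on stayed above 10 CPM, whereas no Ctrl library from 2 h on did.

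Arhgap19, a GTPase-activating protein for RhoA in dividing cells, fell in both arms. In Ctrl it measured 93.6 and 123 CPM at 0 h, 46.5 and 44.8 at 1 h, 26.01 and 33.8 at 2 h, 4.18 and 4.82 at 4 h and 0.547 and 0.724 at 6 h. In DI it measured 87.7 and 61.4, 31.95 and 24.7, 21.9 and 14.6, 1.48 and 0.230 and 0.190 and 0 CPM at the same times, and its DI 6 h libraries held 1 read against 775 at 0 h (0.151%, exact 95% interval 0.00383% to 0.845%). It lies on chromosome 19 (GRCm38, 41766588 to 41802047, minus strand).

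Among the other genes with the least left were 4 of lipid and membrane metabolism and transport. Tmem86a, which encodes a lysoplasmalogenase-like membrane protein, went from 125 and 149 CPM at Ctrl 0 h through 137 and 132, 40.8 and 52.8 and 3.96 and 8.80 to 1.64 and 0.483 at 6 h, while DI ran from 39.7 and 43.7 through 75.01 and 36.5, 30.8 and 16.8 and 3.60 and 8.98 to 5.50 and 10.3. Cerk, ceramide kinase, went from 141 and 150.2 through 86.8 and 83.8, 35.1 and 46.8 and 6.37 and 5.81 to 0.547 and 2.65 CPM in Ctrl and from 158 and 128 through 91.8 and 84.8, 62.7 and 64.9 and 15.2 and 8.52 to 13.5 and 7.53 CPM in DI. Lpin1, a phosphatidate phosphatase of triglyceride synthesis, went from 42.2 and 40.7 through 29.8 and 36.4, 26.01 and 21.4 and 1.98 and 2.32 to 0.547 and 0.965 CPM in Ctrl and from 38.8 and 14.6 through 28.1 and 26.6, 13.8 and 6.10 and 0.212 and 4.38 to 0 and 2.26 CPM in DI. In each of these 3 genes the 6 h libraries lay under the 0 h libraries in both arms. Slc45a4, a proton-coupled solute carrier, went from 51.7 and 34.3 through 42.3 and 35.7, 19.4 and 15.2 and 1.76 and 3.49 to 1.37 and 0.724 CPM in Ctrl. Its DI libraries started lower, at 14.1 and 17.2 CPM, and went through 17.2 and 20.2, 9.96 and 17.8 and 1.27 and 4.15 to 2.46 and 4.27 CPM.

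The remaining genes of that group were Nav2, Lhfpl2, Sox4 and Gcnt1. Nav2, a large cytoskeleton-associated protein first described in neurons, kept its level for 1 h and then collapsed, from 93.2 and 84.9 CPM at 0 h and 95.7 and 82.1 at 1 h to 51.3 and 55.4 at 2 h, 3.74 and 4.32 at 4 h and 0.547 and 0.965 at 6 h. Its DI values followed the same course, with 122 and 135, 154 and 151, 62.5 and 56.9, 6.56 and 9.90 and 4.55 and 4.52 CPM. Lhfpl2, a tetraspan membrane protein, was slower in DI: it had 47.9 and 45.5 CPM at Ctrl 1 h after 112 and 85.01 at 0 h, but 77.96 and 90.1 at DI 1 h after 84.3 and 80.6. The later Lhfpl2 values were 18.5 and 15.4, 2.86 and 3.16 and 1.91 and 1.45 CPM in Ctrl and 62.2 and 57.6, 13.1 and 8.98 and 19.3 and 5.78 in DI, with no overlap between the arms at 2, 4 or 6 h. Sox4, a transcription factor of progenitor cells, went from 36.4 and 49.7 CPM through 28.1 and 29.98, 6.85 and 11.1 and 0.440 and 3.16 to 1.09 and 0.483 in Ctrl and from 28.8 and 28.99 through 32.2 and 20.5, 11.99 and 9.03 and 2.96 and 0 to 2.84 and 5.52 in DI. Gcnt1, a glycosyltransferase that branches O-glycans, was lower in DI from the start, at 59.9 and 41.9 CPM against 214 and 216 in Ctrl. It then ran through 91.7 and 172, 39.9 and 66.6 and 9.01 and 7.31 to 6.29 and 2.17 CPM in Ctrl and through 41.2 and 53.5, 18.6 and 20.8 and 2.75 and 1.15 to 0.758 and 0 CPM in DI.

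The most abundant of the 259 genes included Zfp36l1, Nrp1, Wwp1, Por and Rgs2. Reads came from transcript 3′ ends, so counts do not grow with transcript length. Zfp36l1 binds AU-rich elements in mRNA and promotes their decay, and lies on chromosome 12 (80107754 to 80113013, minus strand). It measured 1223 and 1706 CPM at Ctrl 0 h, 1838 and 2261 at 1 h, 849.7 and 1023 at 2 h, 87.5 and 96.5 at 4 h and 118 and 99.9 at 6 h. In DI it was already low before LPS, at 144 and 142 CPM, and then measured 211 and 185, 167 and 258, 38.9 and 52.1 and 81.5 and 104 CPM. The arms were far apart until 2 h and close at 6 h.

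Nrp1, a co-receptor for semaphorins and VEGF, went from 915 and 675 CPM through 786 and 652, 453 and 339 and 205 and 226 to 135 and 126 in Ctrl and from 964 and 800.1 through 1124 and 735, 543 and 238 and 277 and 276 to 184 and 273 in DI. Wwp1, a ubiquitin ligase, went from 904 and 668 through 641 and 696, 478 and 439.6 and 147 and 112 to 67.3 and 57.2 CPM in Ctrl and from 226 and 513 through 569.7 and 361, 232 and 232 and 79.98 and 129 to 35.6 and 51.7 CPM in DI. The DI 0 h libraries of Wwp1 were far apart, so its DI starting level is poorly known. Por, which passes electrons to cytochrome P450 enzymes, went from 834 and 564 through 455 and 469, 272 and 239 and 119 and 134 to 82.6 and 87.1 CPM in Ctrl and from 801 and 1202 through 1074 and 1041, 462 and 912 and 265 and 360.3 to 208 and 277 CPM in DI. Rgs2, which speeds the shut-off of G protein signals, went from 564 and 764 through 354 and 346, 181 and 156 and 125 and 123 to 72.8 and 71.4 CPM in Ctrl and from 345 and 280.4 through 184 and 111, 85.1 and 100.3 and 103 and 123 to 68.8 and 69.1 CPM in DI. From 4 h on the Rgs2 libraries of the arms lay close to each other.

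**Figure D2:**
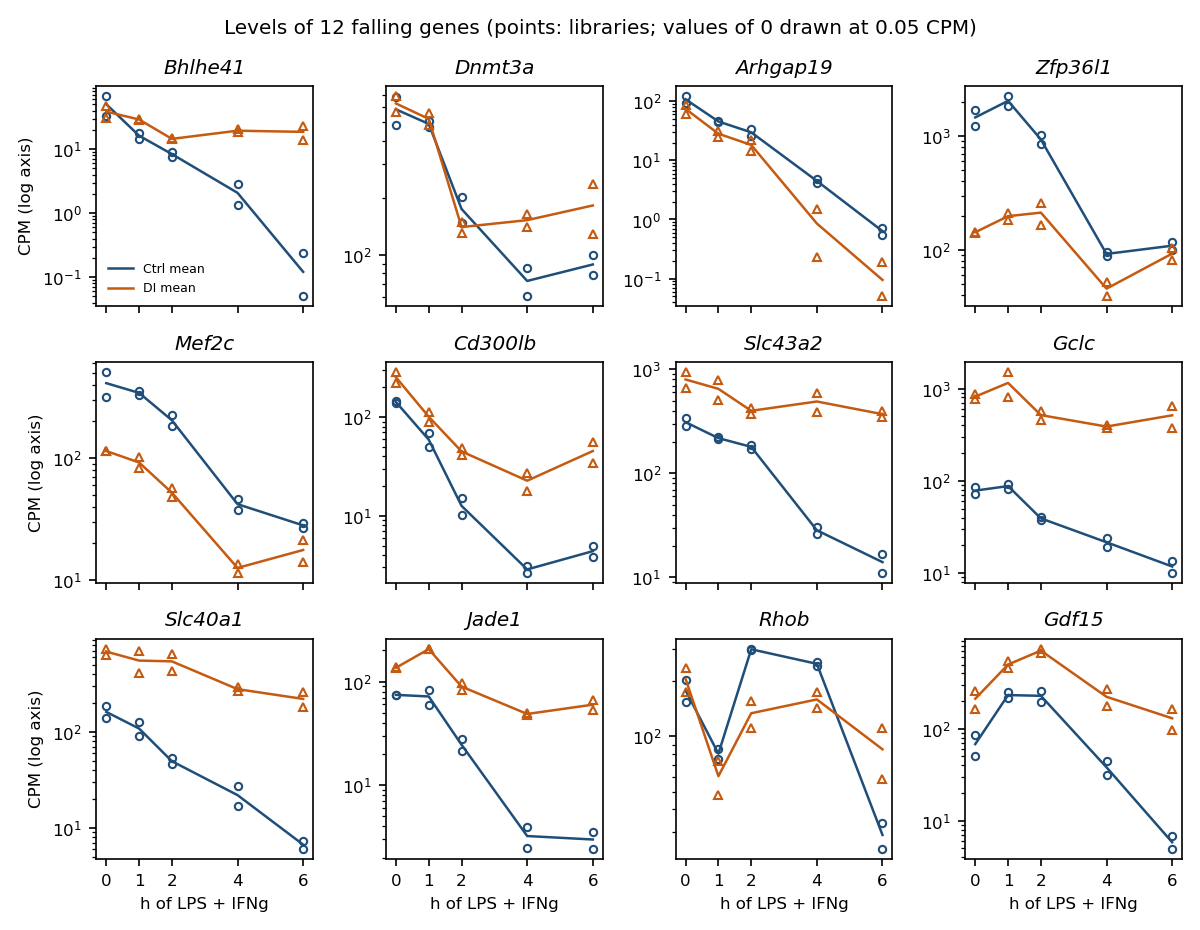
Levels of 12 of the genes against hours of LPS and IFNg, in CPM on log axes of their own, with open circles for Ctrl libraries, open triangles for DI libraries and lines through the group means. Cd300lb, Slc43a2, Gclc, Slc40a1 and Jade1 stay higher in DI, Mef2c stays lower, and Gdf15 rises before it falls. Rhob falls at 1 h and rises again at 2 h in both arms, above its 0 h mean in Ctrl alone.

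By role, the largest group was of 22 genes of G protein and small GTPase signalling, followed by 20 transcription factors and cofactors, 17 genes of DNA replication, repair and mitosis, 17 surface receptors and adhesion proteins, and 16 genes of ribosome biogenesis. There were 11 genes of chromatin and DNA methylation, 11 solute carriers outside iron transport, 9 inhibitors of kinase and growth signalling, 9 glycan-making enzymes, 8 genes of lipid metabolism, 5 secreted proteins, 4 genes of iron and heme handling, 3 redox enzymes and 3 genes of mRNA decay. The other 104 genes had no role in common and are counted together. The roles were assigned from general knowledge after the genes were known, so the size of a role is a description and was not tested. Starting levels ran from 43.0 to 1258 CPM among the transcription factors and from 45.6 to 165 CPM among the ribosome biogenesis genes.

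The time of the fall differed between genes. In Ctrl the mean level was first at or under 50% of 0 h at 1 h for 48 genes, at 2 h for 133, at 4 h for 77 and at 6 h for 1. In DI, against the DI 0 h mean, the corresponding numbers were 21, 104, 110 and 12, and 12 genes never reached 50%. At or under 16.7% of 0 h were 2, 13, 149 and 259 genes at 1, 2, 4 and 6 h in Ctrl and 0, 7, 54 and 73 in DI. Transcription factors were among the early fallers, with a median of 22.5% of 0 h left at Ctrl 2 h, against 43.8% for the GTPase genes, 45.0% for ribosome biogenesis and 53.3% for lipid metabolism. In DI the same roles had medians of 51.6%, 56.0%, 47.5% and 44.0% at 2 h.

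Id1, an inhibitor of basic helix-loop-helix factors and a target of BMP signalling, was under 16.7% of its starting level at Ctrl 1 h, at 7.79 and 9.22 CPM after 54.7 and 55.4. In DI it was above that share, at 9.52 and 22.5 CPM after 78.02 and 45.2. The mitochondrial gene mt-Nd6 was the other, but its Ctrl 0 h libraries, 53.7 and 213 CPM, differed several-fold. It is encoded on the strand opposite to most mitochondrial genes. Whether its reads were shared with overlapping transcripts was not tested. At 2 h, 13 genes were that low in Ctrl: Id1 and mt-Nd6 again, Bhlhe41, the transcription factors Klf10 and Hhex, the kinase phosphatase Dusp6, the stress-response genes Sesn1 and Arrdc3, the receptors Cd300lb and Stab1, the cell cycle ubiquitin ligase component Skp2, Tmppe and Gm10521. Klf10, a TGF-beta-induced repressor, measured 60.6 and 102 CPM at Ctrl 0 h and 18.7 and 13.4, 9.58 and 8.69, 5.49 and 5.31 and 3.56 and 4.83 CPM afterwards. In DI, Klf10 measured 76.8 and 219.6 CPM at 0 h and 30.6 and 45.1, 23.5 and 20.3, 37.2 and 46.99 and 27.1 and 31.4 CPM afterwards, so it fell early and then levelled off above Ctrl.

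A few genes stood higher before they fell. At Ctrl 1 h, 31 of the 259 genes stood above their 0 h mean, 2 of them by over 1.5 times. These were Gdf15, a stress-induced cytokine of the TGF-beta family, and Frmd6, a FERM domain protein of the Hippo pathway. Gdf15 measured 50.9 and 85.4 CPM at Ctrl 0 h, 215 and 250.1 at 1 h, 198 and 259 at 2 h, 31.4 and 44.8 at 4 h and 4.92 and 6.76 at 6 h. In DI it started higher, with 261 and 164, 459 and 541, 743 and 675, 270.2 and 176 and 164 and 96.4 CPM. Frmd6 measured 71.9 and 80.03, 191 and 144, 191 and 109.8, 13.4 and 26.7 and 7.11 and 9.17 CPM in Ctrl and 23.3 and 14.9, 46.9 and 53.7, 44.6 and 42.7, 5.71 and 18.9 and 8.53 and 23.6 CPM in DI. Rhob, an immediate-early small GTPase of endosomes, stood lower at 1 h, higher at 2 and 4 h and lowest at 6 h, with 154 and 202, 85.7 and 75.5, 301 and 296, 256 and 242 and 24.3 and 33.8 CPM in Ctrl. It was the only gene whose Ctrl mean at 4 h was above its 0 h mean, and its DI libraries measured 176 and 236, 48.3 and 73.2, 111 and 156, 175 and 143 and 112 and 58.5 CPM.

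The timing in Ctrl was tested between 1, 2 and 4 h, in libraries that the rule did not use. The genes were nevertheless chosen for a deep fall from 0 to 6 h in Ctrl. An excess of genes lower between these times is therefore partly favoured by the choice of genes. All tests were fitted over 10663 genes, and a gene was called at an adjusted p under 0.05. Between 1 and 4 h, 185 of the 259 genes were lower and 1 was higher, where 7.49% of all genes tested were lower and 10.9% higher, and the median log2 change was −1.59 for the set and −0.06 for all genes. Most of this change between 1 and 4 h fell after 2 h, which is also the longer of the intervals. Between 2 and 4 h 95 genes were lower and none higher (2.41% and 3.09% of all genes), with a median of −1.13. Between 1 and 2 h, 19 genes were lower and 1 was higher (0.778% and 2.9%), with a median of −0.44. Leaving out 1 library moved the 95 genes lower between 2 and 4 h to 58 (Ctrl 2h replicate 1), 39 (Ctrl 4h replicate 1) or 47 (Ctrl 4h replicate 2), and the 1 h to 2 h count was 4 to 6 without any 1 of its 4 libraries. Scaled by column totals alone, 241, 154 and 45 genes of the set were lower from 1 to 4, 2 to 4 and 1 to 2 h, while over all genes the calls lower and higher were 2022 and 627 in place of 799 and 1160, 504 and 142 in place of 257 and 330, and 207 and 185 in place of 83 and 309.

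Zfp36l1 fell most clearly between 1 and 4 h in Ctrl, by a log2 change of −3.92 ± 0.31 (edgeR adjusted p = 1.04e-08), and between 2 and 4 h alone by −3.05 ± 0.30 (adjusted p = 9.81e-07). Nav2 fell by 3.89 on the log2 scale between 1 and 4 h and by 3.42 between 2 and 4 h. Snx30, a sorting nexin of membrane traffic, fell by 4.33 between 1 and 4 h, and was already lower at 2 h than at 1 h, by 1.66 (adjusted p = 0.00271). Snx30 measured 155 and 199 CPM at Ctrl 0 h and 147 and 109.9, 32.9 and 34.8, 3.52 and 4.98 and 10.4 and 9.89 afterwards, and 159 and 123, 154 and 118, 44.6 and 71.04, 4.65 and 7.83 and 7.39 and 7.03 in DI, so the arms differed little. Snx24, another sorting nexin, fell by 4.09 between 1 and 4 h, from 151 and 191 to 9.01 and 4.82 CPM.

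Between 1 and 2 h, Cd300lb, an activating receptor of myeloid cells, fell by 1.97 on the log2 scale (adjusted p = 7.50e-04). Cd300lb measured 140.1 and 144 CPM at Ctrl 0 h and 68.6 and 49.7, 15.1 and 10.2, 3.08 and 2.66 and 4.92 and 3.86 afterwards. Mphosph8, a reader of methylated histone H3 in heterochromatin, fell by 1.39, from 175 and 274 to 73.2 and 69.6 CPM. Stab1, a scavenger receptor, fell by 1.27, from 77.3 and 72.9 to 20.1 and 31.3 CPM. Rhob was the gene that rose, by 2.16 between 1 and 2 h and 2.19 between 1 and 4 h. Between 2 and 4 h, Tnrc6b, a scaffold of microRNA silencing, fell by 2.83, from 96.98 and 107 to 10.3 and 12.95 CPM, and Mtss1, an actin-binding protein, fell by 3.06, from 120.2 and 129 to 15.6 and 9.13 CPM. The calls of Jade1, Mphosph8, Snx30 and Stab1 between 1 and 2 h were lost under some alternatives.

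In the DI arm, which the rule did not use, most of the set fell. At 6 h against DI 0 h, 181 of 259 genes were lower and none was higher, where 8.91% of all genes were lower and 11.2% higher, with a median log2 change of −1.50 for the set and −0.10 for all genes. In 256 of the 259 genes both DI 6 h libraries lay under both DI 0 h libraries, which held for 47% of all genes tested, and Frmd6, Gpr137b and Hmga2 were the exceptions. At 4 h, 145 genes were lower and none was higher (7.34% and 11.4% of all genes), with a median of −1.21. At 2 h, 38 were lower and 4 higher (3.09% and 7.89%), with a median of −0.50, and at 1 h, 3 were lower and 3 higher (0.3% and 3.29%), with a median of 0.0059. The 2 h count of lower genes was 13 without DI 2h replicate 2 and 25 without DI 0h replicate 2, and at 1 h it was 1 without DI 0h replicate 2. At an unadjusted p under 0.05, no gene was higher at DI 6 h and 2 were higher at DI 4 h. Scaled by column totals alone, 231 of the 259 were lower at 6 h, 224 at 4 h and 101 at 2 h, while over all genes the calls lower and higher were 2367 and 721 at 6 h in place of 950 and 1199, 2725 and 730 at 4 h in place of 783 and 1215, 1217 and 561 at 2 h in place of 329 and 841, and 68 and 245 at 1 h in place of 32 and 351.

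The genes with the smallest p in the DI arm were largely the deep fallers of Ctrl. Nav2 was lower by a log2 change of 3.35 at DI 4 h and 4.27 at DI 6 h. Snx30 was lower by 3.88 and 3.72. Arhgap19 was lower at DI 4 h (edgeR adjusted p = 9.77e-09) and 6 h (adjusted p = 9.61e-10), and its fold is given above as a ratio of counts because 1 read remained. Gcnt1 was lower at 6 h, where its libraries held 4 and 0 reads against 247 and 282 at 0 h. Dkc1, the pseudouridine synthase of ribosomal RNA and a part of telomerase, was lower at DI 6 h by −3.87 ± 0.42 (adjusted p = 1.66e-07), from 49.4 and 72.7 to 2.28 and 3.52 CPM. Its Ctrl values were 63.99 and 71.2, 41.9 and 54.7, 31.03 and 29.8, 6.81 and 6.48 and 5.47 and 10.6 CPM, and its other DI values 50.8 and 44.7, 21.3 and 18.8 and 6.77 and 7.83. The uncharacterized gene 6430548M08Rik was lower at DI 4 h by 4.41, from 46.8 and 55.2 to 0.846 and 2.30 CPM.

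At 1 and 2 h of the DI arm the calls were few. Rhob was lower at 1 h by −1.52 ± 0.32 (edgeR adjusted p = 0.00440), Klf10 by −1.75 ± 0.41 (adjusted p = 0.0112) and Stab1 by −0.996 ± 0.28 (adjusted p = 0.0489). Gdf15 was higher at 1 h by 1.49 ± 0.33 (adjusted p = 0.00644), as were Frmd6 by 1.66 and Fam198b, a Golgi glycoprotein, by 1.11, from 48.2 and 37.3 to 65.3 and 90.3 CPM. Each of these 6 calls at 1 h was lost under some alternative. At 2 h, Cd300lb was lower by −2.04 ± 0.32, Stab1 by −1.78 ± 0.29 and Klf10 by −2.33 ± 0.42. Dnmt3a, which methylates unmethylated DNA, was lower at 2 h by −1.71 ± 0.31 (adjusted p = 3.14e-04). Dnmt3a measured 487 and 684, 469.8 and 511, 147 and 202, 85.3 and 60.4 and 99.8 and 78.2 CPM in Ctrl and 569 and 688, 561 and 481, 130.3 and 149.9, 140.5 and 164 and 129 and 236 in DI, with overlap of the arms at 2 h and none at 4 h. Dusp6, a phosphatase of ERK, was lower at 2 h by −2.26 ± 0.41. L3mbtl3, a reader of methylated histones, was higher at 2 h by 1.27, from 19.9 and 24.2 to 34.6 and 43.5 CPM, a call lost under some alternatives, as were those of Frmd6 and Zfp36l1 at that time.

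At DI 6 h 69.9% of the set and 8.91% of all genes tested were lower, and many of the role counts below lie near the share of the set. By role, ribosome biogenesis had 15 of 16 genes lower at DI 6 h and a median log2 change of −1.85. In these genes Mdn1, an ATPase that strips assembly factors from the large subunit, went from 121 and 177 CPM at DI 0 h to 14.8 and 33.7 at 6 h (Ctrl 126 and 205 to 12.04 and 16.4), and Utp20, of the small subunit processome, from 51.4 and 71.2 to 2.84 and 5.78 (Ctrl 65.4 and 30.7 to 4.65 and 4.34). Glycan-making enzymes had 8 of 9 lower, lipid metabolism 7 of 8, iron and heme handling 4 of 4, chromatin 9 of 11, GTPase signalling 17 of 22, and inhibitors of kinase signalling 7 of 9. DNA replication, repair and mitosis had 12 of 17 lower, among them the helicase subunit Mcm6, at 31.5 and 36.9 CPM at DI 0 h and 8.53 and 7.03 at 6 h. Surface receptors had 12 of 17 lower, and the interleukin 6 receptor Il6ra went from 153 and 160.3 to 38.1 and 66.05 CPM, whereas its partner Il6st measured 185 and 154 and then 107 and 74.8 CPM and was not called. Transcription factors had 11 of 20 lower and the mixed group 65 of 104. No role had a gene called higher at DI 6 h.

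The levels of the 2 arms also differed before LPS, and this contrast holds libraries of the rule, so it is described without a test. The median ratio of DI 0 h to Ctrl 0 h was 0.809 over the 259 genes. In 48 of them the DI 0 h mean was under 50% of the Ctrl mean, and in 8 it was over 2 times as high (Cgnl1, Slc40a1, Slc43a2, Mettl1, Gdf15, Idh1, Gclc and Mindy1). At 6 h the median ratio of DI to Ctrl was 1.77, and 113 genes were over 2 times as high in DI. Relative to its own 0 h level, 238 of the 259 genes had more left in DI at 6 h, and 21 had less, Arhgap19, Gcnt1, Dkc1 and Snx30 among them. The rule required a low Ctrl 6 h level and a high Ctrl 0 h level and set no limit in DI, so this direction is partly fixed by the choice of genes.

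Whether DI changed the level was tested at 1, 2 and 4 h, in libraries outside the rule. The genes were nevertheless chosen for a deep fall in Ctrl, with no limit set in DI. At Ctrl 4 h their median was already 14.9% of 0 h. An excess of genes higher in DI at 4 h is therefore partly favoured by the choice of genes. At 1 h, 14 of the 259 genes were lower in DI and 10 higher, where 3.03% of all genes were lower and 1.86% higher. At 2 h, 21 were lower and 16 higher (3.97% and 2.27%). At 4 h, 9 were lower and 44 higher (6% and 3.43%), so that 17.0% of the set was called higher. The median log2 difference of the set was 0.0037 at 1 h, 0.04 at 2 h and 0.34 at 4 h, against 0.0034, −0.03 and −0.06 over all genes tested. Of the 259, 182 genes were called at none of the 3 times, and none was lower at one time and higher at another. The matching numbers over all genes tested were not counted. Leaving out Ctrl 4h replicate 1 gave 5 lower and 22 higher genes at 4 h, leaving out Ctrl 4h replicate 2 gave 3 and 25, and leaving out DI 4h replicate 2 gave 5 lower. At 2 h, 5 were lower and 9 higher with Ctrl 2h replicate 1 left out, 9 and 6 with Ctrl 2h replicate 2 left out, and 6 and 9 with DI 2h replicate 2 left out. At 1 h, 7 were lower and 6 higher with Ctrl 1h replicate 1 left out, 3 and 5 with Ctrl 1h replicate 2 left out, 8 lower with DI 1h replicate 1 left out, and 3 lower with DI 1h replicate 2 left out. Scaled by column totals alone, 7 genes of the set were lower and 56 higher at 4 h, while over all genes 439 were lower and 563 higher in place of 640 and 366.

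**Figure D3:**
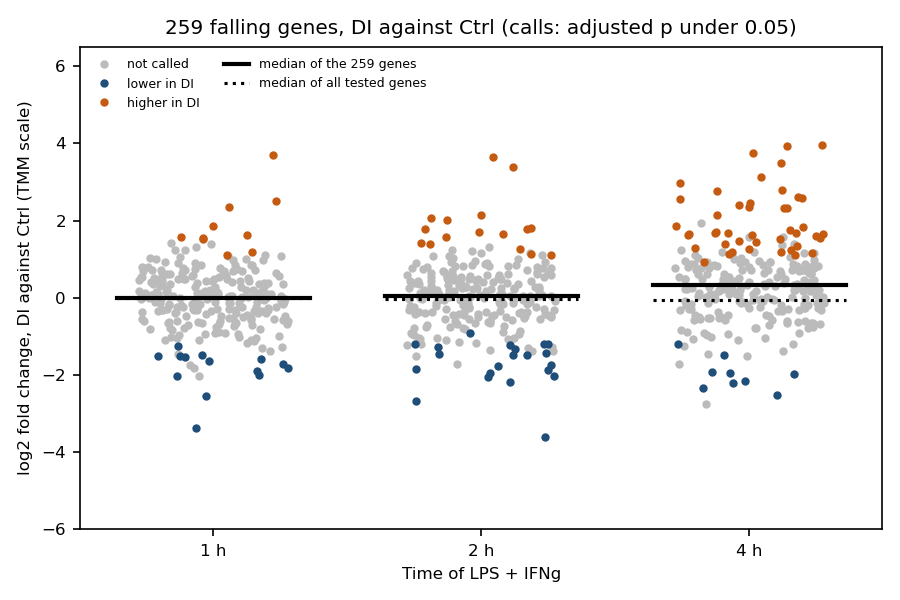
Log2 fold change of DI against Ctrl on the TMM scale for the 259 genes at 1, 2 and 4 h (points, spread sideways at random), with called genes in colour. Solid bars are medians of the 259 genes (0.0037, 0.04 and 0.34) and dotted bars are medians of all genes tested (0.0034, −0.03 and −0.06), and the points called higher grow from 10 to 44.

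A set chosen in DI by the same limits, drawn up after these results were seen, gives the comparison from the other side. In DI 79 genes met the rule, of which 55 were also among the 259, which is 21.2% of the Ctrl set and 69.6% of the DI set. Of these 79 genes, 7 were lower and 7 higher in DI at 4 h (6% and 3.43% of all genes tested), with a median log2 difference of 0.21. Of the 24 that were in the DI set alone, 3 were lower and 1 was higher. The Ctrl set thus held more genes higher than lower in DI at 4 h, and the DI set held as many of each. The DI set was chosen for a deep fall in DI, so genes lower in DI at 4 h are partly favoured there. The 55 shared genes, 4 of them lower and 6 higher, count in both sets, so the sets are not separate. Of the 259 genes, 60 had under 40 CPM in DI before LPS and could not have met the rule there.

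The genes higher in DI at 1, 2 and 4 h alike were 9: Cgnl1, Gclc, Gdf15, Irf2bp2, Jade1, Mindy1, Por, Slc40a1 and Slc43a2. How many of all genes tested were higher at all 3 times was not counted, so this number has no background beside it. Gclc, the catalytic part of glutamate-cysteine ligase in glutathione synthesis, lies on chromosome 9 (77754535 to 77794485, plus strand). It measured 71.7 and 85.2 CPM at Ctrl 0 h, 93.1 and 82.5 at 1 h, 40.8 and 37.6 at 2 h, 19.3 and 23.9 at 4 h and 10.1 and 13.5 at 6 h, against 875 and 761, 1496 and 805, 573 and 458, 403 and 372 and 371 and 654 in DI. Every DI library was above every Ctrl library, and the log2 difference was 3.71 ± 0.33 at 1 h (edgeR adjusted p = 6.17e-08), 3.66 ± 0.34 at 2 h (adjusted p = 1.26e-07) and 3.96 ± 0.34 at 4 h (adjusted p = 4.58e-08). Slc40a1, ferroportin, the iron exporter, lies on chromosome 1 (45908068 to 45926523, minus strand). It measured 185 and 138, 91.7 and 126, 46.1 and 53.2, 27.3 and 16.8 and 7.39 and 6.03 CPM in Ctrl and 737 and 639.5, 701 and 408, 652 and 436, 266 and 293 and 262 and 180.3 CPM in DI. Its log2 difference was 2.34 ± 0.32 at 1 h, 3.39 ± 0.33 at 2 h and 3.49 ± 0.34 at 4 h (adjusted p = 1.69e-07). At DI 6 h against 0 h, Slc40a1 was lower and Gclc was not called.

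Slc43a2, a transporter of large neutral amino acids, measured 339 and 283, 215 and 222, 173 and 186, 30.6 and 26.2 and 16.96 and 11.1 CPM in Ctrl and 664 and 936, 788 and 513, 427 and 373, 386 and 597 and 397 and 345 CPM in DI. It was higher in DI by 1.57 ± 0.29 on the log2 scale at 1 h and 3.93 ± 0.33 at 4 h (edgeR adjusted p = 2.25e-08), so the arms drew apart. Jade1, a subunit of a histone acetyltransferase complex, measured 74.3 and 74.4, 83.7 and 59.7, 27.8 and 21.2, 3.96 and 2.49 and 3.56 and 2.41 CPM in Ctrl and 137 and 134, 207 and 204, 96.2 and 82.5, 49.5 and 47.7 and 53.5 and 66.05 CPM in DI. Its log2 difference was 1.52 ± 0.29 at 1 h, a call lost under some alternatives, 1.81 ± 0.30 at 2 h and 3.74 ± 0.35 at 4 h (adjusted p = 1.54e-07). Mindy1, a deubiquitinase of lysine-48 chains, measured 76.7 and 69.4, 57.4 and 46.1, 29.7 and 35.5, 14.9 and 13.9 and 10.4 and 12.5 CPM in Ctrl and 225 and 215, 130.3 and 243, 122 and 149.6, 106 and 93.1 and 126 and 119 CPM in DI. It was higher by 1.85 ± 0.30 at 1 h, 2.004 ± 0.30 at 2 h and 2.59 ± 0.32 at 4 h.

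Cgnl1, a tight junction-associated protein, was higher at 1 h by 2.50 ± 0.37 (edgeR adjusted p = 6.91e-05), with 42.1 and 40.4 CPM in Ctrl and 211 and 257 in DI. Its other values were 74.95 and 48.6, 40.4 and 30.9, 12.1 and 9.80 and 4.10 and 0.965 CPM at 0, 2, 4 and 6 h in Ctrl and 222 and 246, 136 and 99.1, 59.5 and 93.5 and 28.3 and 20.6 in DI. Irf2bp2, a transcriptional corepressor, was higher at 2 h by 2.15 ± 0.36 (adjusted p = 3.88e-04). It measured 555 and 662, 397 and 380.2, 131 and 120.2, 13.6 and 30.2 and 20.8 and 18.1 CPM in Ctrl and 683 and 1424, 1139 and 1272, 468 and 686, 172 and 131 and 203 and 239.6 CPM in DI, with no overlap at 1, 2, 4 or 6 h. Cd300lb was higher at 2 h by 1.79 ± 0.34, with DI values of 284 and 223, 114 and 88.2, 48.9 and 41.01, 17.98 and 27.4 and 56.3 and 34.4 CPM, and this call was lost under some alternatives.

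The genes lower in DI at 1, 2 and 4 h alike were 4: Gcnt1, Mef2c, Rnf150 and Zfp36l1. For these too the number over all genes tested was not counted. Zfp36l1 was lower by −3.38 ± 0.30 on the log2 scale at 1 h (edgeR adjusted p = 6.17e-08), −2.19 ± 0.29 at 2 h (adjusted p = 1.92e-05) and −1.21 ± 0.29 at 4 h (adjusted p = 0.00777), so the gap shrank as Ctrl fell. Mef2c, a transcription factor of myeloid and muscle cells, measured 319.8 and 507, 359 and 328, 226 and 183, 37.1 and 46.5 and 26.5 and 29.4 CPM in Ctrl and 115 and 114, 102 and 82.4, 56.3 and 47.6, 11.4 and 13.6 and 14.03 and 21.1 CPM in DI. Its difference was nearly constant, at −1.90 ± 0.30, −2.04 ± 0.30 and −1.94 ± 0.32. Rnf150, a RING finger protein, was lower at 1 h by −2.01 ± 0.43, with 95.96 and 122 CPM in Ctrl and 25.2 and 29.1 in DI. Gcnt1 was lower at 4 h by −2.22 ± 0.56. The 4 h calls of Zfp36l1, Gcnt1, Arhgap19 and Mcm3 and the 1 h call of Rnf150 were lost under some alternatives.

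Among the genes lower in DI, Arhgap19 was lower at 4 h by −2.53 ± 0.57, and Mcm3, a subunit of the replicative helicase, by −1.98 ± 0.48, with 7.03 and 8.97 CPM in Ctrl and 1.90 and 2.76 in DI. At 1 h Rgs2 was lower by −1.25 ± 0.28, Cd300lf, an inhibitory myeloid receptor, by −1.52 ± 0.38 (98.6 and 190.1 CPM in Ctrl, 56.7 and 44.7 in DI), and Lrmp, a membrane protein of lymphoid and myeloid cells, by −2.54 ± 0.54 (17.1 and 57.04 and 6.80 and 6.10 CPM). The Ctrl libraries of Lrmp differed several-fold at 1 h, and all 3 calls were lost under some alternatives. At 2 h the ETS factor Etv5 was lower by −2.69 ± 0.47 (adjusted p = 5.64e-04), with 40.6 and 42.1 CPM in Ctrl and 7.69 and 5.61 in DI. Lbh, a transcriptional cofactor, was lower by −2.05 ± 0.44 (63.7 and 39.9 and 7.69 and 18.1 CPM), Kctd12b by −3.62 ± 0.88 (8.90 and 17.02 and 0 and 2.20 CPM), and DNA ligase Lig1 by −1.75 ± 0.44 (75.3 and 58.1 and 19.7 and 21.5 CPM), 3 calls that were lost under some alternatives.

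By role, and beside 3.43% higher and 6% lower over all genes tested and 17.0% higher over the set, the genes higher in DI at 4 h were 6 of 20 transcription factors (among them Bhlhe41, Irf2bp2 and Klf10), 5 of 17 receptors (Plxna2, Cd300lb, Stab1, Il6ra and Tlr13) and 4 of 16 ribosome biogenesis genes (Mdn1, Gnl3, Mphosph10 and Pum3). Chromatin, GTPase signalling and inhibitors of kinase signalling had 3 each. Of the genes lower at 4 h, 2 were transcription factors, 2 belonged to DNA replication, repair and mitosis, 1 to the glycan-making enzymes, 1 to mRNA decay and 3 to the mixed group. Tlr13, an endosomal sensor of bacterial ribosomal RNA, measured 26.2 and 30.6 CPM at Ctrl 4 h and 93.9 and 70.9 at DI 4 h. Dnmt1, which copies DNA methylation at replication, measured 6.81 and 6.14 and 18.4 and 16.8 CPM. Genes of DNA replication, repair and mitosis were split, with 2 lower and 2 higher of 17. The median log2 difference at 4 h was 1.19 for the 9 inhibitors of kinase signalling, 0.83 for ribosome biogenesis, 0.76 for surface receptors and −0.14 for DNA replication, repair and mitosis.

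Whether the fall itself differed was tested as the change from 1 h to 4 h in DI minus that in Ctrl. In CPM the median gene had 22.4% of its 1 h level left at 4 h in Ctrl and 34.8% in DI, and 206 of the 259 genes had more left in DI. The median of the tested log2 difference was 0.38 for the set and −0.07 for all genes. The rule chose genes for their fall in Ctrl and set no limit in DI. A smaller fall of the set in DI is therefore partly favoured by that choice. Few genes were called: 7 fell less in DI and 1 fell more, where 0.206% and 0.253% of all genes were called, and 47 and 5 of the 259 had an unadjusted p under 0.05. Among the 7 were Slc43a2, at 2.36 ± 0.42 (edgeR adjusted p = 0.00995), Zfp36l1 at 2.17 ± 0.40, Nfic at 2.37 ± 0.47, Jade1 at 2.22 ± 0.45, Plau at 2.69 ± 0.57 and Rab7b at 1.74 ± 0.37 (adjusted p = 0.0288). These counts rest on single libraries. No gene of the set was called once either Ctrl 4 h library, DI 1h replicate 2 or DI 4h replicate 2 was left out. Leaving out Ctrl 1h replicate 1 gave 3 in place of 7, leaving out Ctrl 1h replicate 2 gave 2, leaving out DI 1h replicate 1 gave 4, and leaving out DI 4h replicate 1 gave 9. A gene with a larger fall in DI was called in the last of these alone.

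Nfic, a nuclear factor I protein, measured 199 and 213, 146 and 191, 68.5 and 58.6, 12.3 and 9.96 and 17.2 and 14.7 CPM in Ctrl and 115 and 163, 188 and 100.1, 97.5 and 60.5, 55.6 and 55.5 and 44.9 and 54.2 CPM in DI, with overlap at 2 h and none at 4 h. Plau, the urokinase protease, measured 144 and 223, 152 and 105, 53.9 and 54.9, 8.35 and 13.9 and 7.39 and 8.20 CPM in Ctrl and 97.9 and 72.3, 51.4 and 76.8, 40.3 and 71.5, 24.8 and 58.97 and 43.4 and 36.2 CPM in DI. Rab7b, a GTPase that guides TLR4 toward lysosomes, measured 519 and 637, 347 and 397, 191 and 189, 46.4 and 39.4 and 79.6 and 86.9 CPM in Ctrl and 518 and 603, 357 and 431, 287 and 333, 148 and 196 and 259 and 193 CPM in DI. Both arms of Rab7b were level at 0 and 1 h, and all DI libraries were above all Ctrl libraries from 2 h on.

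**Figure D4:**
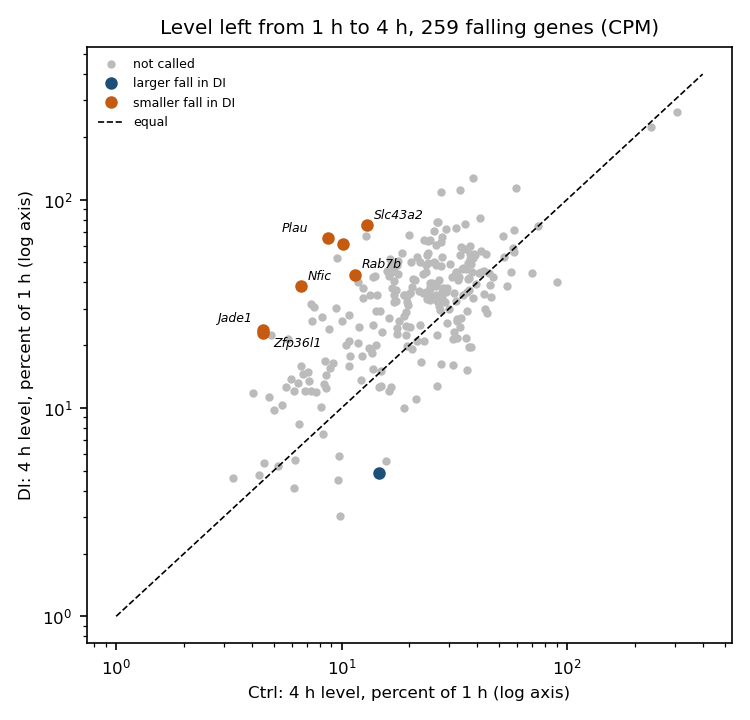
Level at 4 h as a percentage of the level at 1 h in Ctrl (x) and in DI (y), in CPM on log axes, for the 259 genes, with the line of equality dashed. Of the 259 points 206 lie above the line, the 7 called genes with a smaller fall in DI are orange, and the 1 with a larger fall is blue. The side above the line is partly favoured by choosing the genes for their fall in Ctrl.

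Pathway lists set the 259 genes beside their relatives. These lists were chosen with earlier results of these data known. Of 40 genes of DNA replication and cell cycle, 39 could be tested and 4 belonged to the set (Mcm3, Mcm6, Top2a and Lig1). At DI 6 h against 0 h, where 8.91% of all genes tested were lower and 11.2% higher, 8 of the 39 were lower and 2 higher, and the median log2 change was −0.76. Of the 35 relatives outside the set, 4 were lower and 2 higher. Of 22 tested genes of the BMP and TGF-beta pathway, 3 belonged to the set (Id1, Id3 and Tgfbr1), and at DI 6 h 4 of the 22 were lower and 3 higher. Tgfbr1, the type I TGF-beta receptor, measured 85.02 and 51.4 CPM at Ctrl 0 h and 6.56 and 6.27 at 6 h. Of 26 FOXO and quiescence targets, 4 belonged to the set (Klf2, Sesn1, Arrdc3 and Trp53inp1), and at DI 6 h 4 of the 26 were lower and 2 higher. Of 35 chemoattractant and purinergic receptors, 3 belonged to the set (C5ar2, Lpar6 and S1pr2), and at DI 6 h 8 of the 35 were lower and 7 higher. Of 25 genes of G protein and small GTPase signalling, 7 belonged to the set (Rgs2, Rgs18, Rasa3, Arhgap18, Arhgap19, Dock8 and Rhob), and at DI 6 h 11 of the 25 were lower and 3 higher.

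The counts of the next lists are also at DI 6 h, beside 8.91% lower and 11.2% higher over all genes tested. Among 41 transcription factors of macrophage identity, 5 belonged to the set (Mef2c and Etv5 among them), and at DI 6 h 11 were lower and 8 higher, with a median log2 change of −0.06. Among 32 scavenger and phagocytic receptors, 2 belonged (Stab1 and Cd300lb), with 6 of the 32 lower and 7 higher. Among 24 Toll-like receptors and adaptors, Tlr13 alone belonged, and it was the 1 gene lower at DI 6 h, beside 11 higher. Among 30 growth factor and cytokine receptors, Il6ra and Il6st belonged, with 2 lower and 12 higher. Among 35 regulators of the immediate response, Klf10 and Zfp36l1 belonged, with 6 lower and 7 higher, and among 34 genes of ubiquitin, apoptosis and adaptor signalling 4 belonged (Inpp5d, Map4k3, Dusp6 and Spry2), with 7 lower and 11 higher. No gene of the set was among 22 genes of lipid efflux (2 lower, 3 higher) or 19 of cholesterol synthesis and uptake (3 lower, 1 higher). In the lists with members of the set other than the Toll-like receptors, genes outside the set were lower in some cases and higher in others.

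Some features that the rule did not use differed in median between the set and other genes, with wide overlap. By the GENCODE M21 annotation of GRCm38 the median gene length of the set was 39254 bp (quartiles 18438.5 to 83317). It was 28634 bp (12705.5 to 63191) for the other 3742 annotated genes of at least 40 CPM. Median coding length was 1776 against 1362 nt, and the median number of exons 12 (quartiles 6 to 19) against 10 (6 to 16). Length differed with the time of the fall: the 48 genes first at or under 50% at 1 h had a median gene length of 22863.5 bp, the 133 at 2 h had 38336 bp and the 78 later genes had 73613.5 bp. The quartiles of these classes overlapped, at 9074 to 45831 bp, 20386 to 65998 bp and 27932.5 to 150205 bp. The 3′ untranslated region was longer in the set (median 1539 nt, 256 genes, against 1234.5 nt, 3708 genes). It was not richer in the pentamer ATTTA, the core of AU-rich decay elements, with a median of 2 in both and 1.22 against 1.64 per kb, and 77.3% against 74.0% of genes had at least 1. These are descriptions over genes, with no test.

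**Figure D5:**
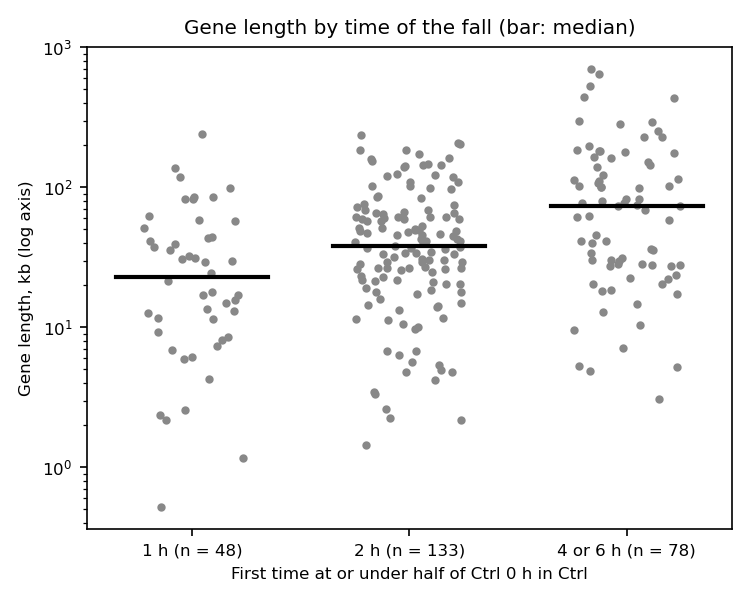
Gene length in kb (log axis) for the 259 genes by the first time at which the Ctrl mean was at or under 50% of 0 h, with medians as bars. The medians are 22863.5, 38336 and 73613.5 bp, and the classes overlap widely.

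Promoters were read from the RefSeq table of GRCm38.p6, 250 bases before to 50 after a start listed there for a gene, for the 202 of 259 genes that matched by symbol. They were searched on both strands for short motifs, with each motif counted by itself. A gene counted as a match if any promoter listed for it held the motif, so genes with more listed starts could match more often. The E-box CACGTG, bound by basic helix-loop-helix factors, was in 18.3% of the set, in 12.6% of 3009 other genes of at least 40 CPM and in 8.09% of all 27025 genes with a listed promoter. The AP-1 motif TGACTCA was in 8.91%, 4.55% and 5.95%, the PU.1 motif GAGGAAGT in 7.43%, 4.79% and 3.69%, and the E2F motif TTTGGCGC in 2.97%, 1.10% and 0.585%. The CRE motif TGACGTCA was in 1.49%, 3.99% and 2.03%, the FOX motif TGTTTAC in 3.47%, 2.99% and 4.05%, TATAAA in 8.42%, 9.67% and 15.7%, and the GC box CCGCCC in 75.2%, 70.9% and 38.2%. The NF-kB motif, searched in 1 fixed form of its consensus, was in 0 of the 202 genes of the set, in 0.299% of the other genes and in 0.174% of all. A match is a string of letters and shows no binding, and these shares were not tested. The promoters of 3 genes are printed because these genes carry the results above: Bhlhe41 fell deepest in Ctrl, Zfp36l1 was the most abundant and was lower in DI, and Nfic fell less in DI. Capitals mark the motif matches, which are 1 E-box and GC boxes in Bhlhe41 (chr6:145865371-145865670, minus strand), a TATAAA in Zfp36l1 (chr12:80112964-80113263, minus strand), and GC boxes and an AP-1 motif in Nfic (chr10:81427124-81427423, minus strand). The Nfic window lies at a start inside the gene as annotated by GENCODE (81396186 to 81455635), away from its outer 5′ end.
Bhlhe41: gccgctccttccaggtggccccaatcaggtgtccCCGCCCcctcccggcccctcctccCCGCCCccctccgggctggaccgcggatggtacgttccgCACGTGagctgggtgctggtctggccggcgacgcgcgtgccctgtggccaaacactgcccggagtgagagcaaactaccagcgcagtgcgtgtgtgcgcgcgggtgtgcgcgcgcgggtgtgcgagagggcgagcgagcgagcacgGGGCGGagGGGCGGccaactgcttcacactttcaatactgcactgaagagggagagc
Zfp36l1: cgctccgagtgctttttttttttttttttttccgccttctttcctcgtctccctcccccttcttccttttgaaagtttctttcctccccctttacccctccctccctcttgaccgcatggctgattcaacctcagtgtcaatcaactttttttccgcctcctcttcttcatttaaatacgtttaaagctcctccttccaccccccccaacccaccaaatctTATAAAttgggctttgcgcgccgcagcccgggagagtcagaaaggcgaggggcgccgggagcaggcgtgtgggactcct
Nfic: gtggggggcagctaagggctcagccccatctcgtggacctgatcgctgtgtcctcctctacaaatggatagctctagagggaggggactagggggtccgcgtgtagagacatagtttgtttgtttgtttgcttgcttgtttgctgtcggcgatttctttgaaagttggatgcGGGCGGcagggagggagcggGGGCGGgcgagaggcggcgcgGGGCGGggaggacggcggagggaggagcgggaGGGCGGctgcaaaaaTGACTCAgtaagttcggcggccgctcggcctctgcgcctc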

How the data were processed

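The deposited table gives raw read counts for 22165 Ensembl genes in 20 libraries, which the authors made from strand-specific 3′-end mRNA libraries, per the labels' protocols, with barcoded oligo-dT primers, pooling by Actb qPCR and 12 PCR cycles. Per the submitters' processing notes, STAR, HTSeq and DESeq2 were used with mm10, and versions are not given in the sources used here. No molecular identifiers are named, so intervals cover counting error only. From these counts, CPM was computed per column total for levels and for the rule that chose the genes. Symbols matched for 21745 genes.

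Fold changes, standard errors and adjusted p-values came from edgeR 4.0.16 (R 4.3.3) with filterByExpr by group, TMM factors and quasi-likelihood tests, fitted to all 20 libraries with 1 coefficient per group, with Benjamini-Hochberg adjustment over 10663 genes. The test was checked on simulated counts. Values after ± are standard errors, with 2 libraries per group. Contrasts with Ctrl 0 h or Ctrl 6 h libraries were not tested, because these libraries chose the genes. Alternatives were DESeq2 1.42.0 (size factors and Wald test), column totals alone, other filters, limma 3.58.1 (voom, also with quality weights), a replicate block, and libraries left out. Named with full values were the 10 genes with the least left, the 6 most abundant, and for each contrast up to 6 called genes with the smallest p in each direction. Other names came with the roles, the limits of the rule or the lists, and were chosen after their values were seen. The genes, roles and pathway lists were chosen with earlier results of these data known. A few genes of the set that these rules name are not reported here.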

Additional observations from a re-analysis of the deposited data

Results flagged for a closer look

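In 8 of the 259 genes the change from 1 h to 4 h differed between DI and Ctrl by the test of that difference itself (edgeR quasi-likelihood, adjusted over 10663 genes). The share of the 1 h level left at 4 h was larger in DI for 7 of them. This direction is partly favoured by choosing the genes for their fall in Ctrl. A larger share left is not always a higher level: Zfp36l1, 1 of the 7, was lower in DI at 4 h, by −1.21 ± 0.29 on the log2 scale. The log2 difference was 2.36 ± 0.42 for Slc43a2, an amino acid transporter, 2.17 ± 0.40 for the mRNA decay factor Zfp36l1 and 2.37 ± 0.47 for the transcription factor Nfic. It was 2.22 ± 0.45 for the histone acetyltransferase subunit Jade1, 2.69 ± 0.57 for the protease Plau and 1.74 ± 0.37 for the endosomal GTPase Rab7b. In CPM, Slc43a2 went from 215 and 222 to 30.6 and 26.2 in Ctrl and from 788 and 513 to 386 and 597 in DI. The 4 h libraries of the arms did not overlap. Over 17 alternatives the adjusted p of Slc43a2 ran from 8.68e-06 to 0.0861. Plau kept its call in 7 of the 17, Rab7b in 9, Jade1 in 10, and Nfic, Slc43a2 and Zfp36l1 in 12. The DI libraries held fewer genes at 1 to 3 counts (333 to 674, against 1370 to 1741 in Ctrl), and the part of this in these differences was not tested.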

How the results depend on the processing

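Over 1211 values of named genes under alternatives, 1071 kept direction and call, 140 kept direction and lost the call, and none reversed. Counts below are of the 259 genes called lower unless said otherwise, and the cause of each move was not tested. Column totals alone shift the median log2 change of all genes by −0.24, −0.45, −0.61 and −0.55 in DI at 1, 2, 4 and 6 h against 0 h, −0.26, −0.29 and −0.56 in Ctrl from 1 to 2, 2 to 4 and 1 to 4 h, 0.19 for DI against Ctrl at 4 h and 0.19 for the difference of changes. They gave 7, 101 and 224 at DI 1, 2 and 4 h against 0 h, 45 and 154 in Ctrl from 1 to 2 and 2 to 4 h, and 0 for the difference of changes. Without the filter, DI against Ctrl at 4 h had 14, Ctrl 1 to 2 h had 31, and 11 genes had a smaller fall in DI. DESeq2 gave 7 at DI 1 h, 39 for Ctrl 1 to 2 h and 12 with a smaller fall in DI. limma-voom gave 7 at DI 1 h, 22 and 4 for DI against Ctrl at 1 and 4 h, 30 for Ctrl 1 to 2 h, and 0 with a larger and 4 with a smaller fall in DI. With quality weights it gave 1, 16, 84 and 116 at DI 1, 2, 4 and 6 h, 3 for DI against Ctrl at 4 h, 74 and 171 for Ctrl 1 to 2 and 2 to 4 h, and 0 and 4 for the larger and smaller fall. Without the 3 DI libraries of replicate 2 at 2, 4 and 6 h, the counts were 6 and 25 at DI 1 and 2 h, 24 and 12 for DI against Ctrl at 1 and 2 h, 34 for Ctrl 1 to 2 h, and 0 and 4 for the larger and smaller fall. With limits of 25% or 12.5% left the rule gave 493 or 157 genes, with 20 or 80 CPM 441 or 136, and on TMM-scaled CPM 80.

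With each library left out in turn, DI against Ctrl gave 3 to 8 lower and 5 to 13 higher at 1 h, 5 to 14 and 6 to 16 at 2 h, and 3 to 13 and 22 to 38 at 4 h. Ctrl gave 4 to 6 lower from 1 to 2 h, 39 to 65 from 2 to 4 h and 131 to 161 from 1 to 4 h. DI gave 1 to 4, 13 to 34, 101 to 125 and 134 to 152 at 1, 2, 4 and 6 h, and the difference of changes gave 0 to 1 with a larger and 0 to 9 with a smaller fall in DI.

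The labels number the replicates alike in every group without saying that a number marks a shared source. Deviations of same-numbered libraries correlated at −0.143 to 0.113 over 45 pairs of groups (median −0.0073, 2 pairs over 0.1). This correlation over genes cannot decide whether a number marks a shared source or batch. In every group the mitochondrial share of counts was higher in replicate 1. It was 2.21% against 1.44% at DI 1 h and 1.32% against 1.30% at Ctrl 6 h. In DI, replicate 1 also held more genes at 1 to 3 counts at each time, as with 585 against 333 at 0 h. In Ctrl it did so at each time but 1 h (1402 against 1436). The source of these differences was not tested. With the replicate block 0 genes had a larger fall in DI in place of 1, and every other count stayed within 1.5 times.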
